A study of Eriocheir sinensis with 6 samples.

Results

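In the molting muscle of the Chinese mitten crab (*Eriocheir sinensis*), the 200 annotated genes whose transcript level differed least between 3 crabs were examined. They were chosen by their RNA-seq values. Annotated genes with an FPKM (fragment number scaled by exonic length and by the authors' library size) of at least 5 in each of the 3 RNA-seq libraries were taken, and the 100 genes with the highest mean were left out. This gave 4360 eligible genes of the 21314 annotated ones. The log2 FPKM was centred on the library's median over these genes, and the range of a gene was its highest minus its lowest centred value. The 200 smallest ranges make up 4.59% of the eligible genes. Every statement on the range, the level or the fragment number of these genes describes what chose them, and carries no test.

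The samples were walking-leg muscle of 3 juvenile male crabs, wild type and untreated, taken at the molt (period E). Each crab gave 1 RNA-seq library and 1 ATAC-seq library, named Mu_E_1, Mu_E_2 and Mu_E_3. ATAC-seq marks accessible chromatin, where a transposase can cut the DNA. The design text of the series gives the stage as D, whereas the sample titles and the paper give E. All 6 libraries belong to 1 condition, so the spread over crabs is the only contrast. The RNA-seq library Mu_E_3 stood apart. Among the eligible genes outside the list, the median absolute difference in centred log2 FPKM was 0.45 for Mu_E_1 against Mu_E_2, while Mu_E_3 differed by 0.77 from the former and by 0.76 from the latter. Of the 200 genes, 36 were again among the 200 smallest ranges without Mu_E_3, 58 without Mu_E_1 and 49 without Mu_E_2. Bulk muscle RNA was used, and a different share of a cell type cannot be told apart from a different level per cell.

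Genes with a steady level across individuals serve as internal references in RT-qPCR, where the level of a target gene is divided by that of the reference. Genes needed by every cell, such as those of protein synthesis, the cytoskeleton and basic metabolism, are the usual candidates. In crustacean muscle the molt is a demanding setting for such a choice, since muscle fibres shrink before the old exoskeleton is shed and are rebuilt afterwards. The table pairs no identifier with a gene name or function, and 0 of the 21314 annotated identifiers matched the RefSeq gene table of another assembly. The 200 genes are therefore given by identifier, and neither their functions nor the markers of muscle and of other cell types could be examined. Of the receptor genes that the paper names by identifier, 7 were looked up, and 0 of these were among the 200. The paper names further receptor candidates by identifier, which were not looked up. Of the 7 genes, 4 were eligible, and the nearest was mth2, a methuselah-like receptor, with a range of 0.68 at rank 1245. The ranges of SSTR2 (a somatostatin-type receptor), FMRFaR (an FMRFamide receptor) and moody were 1.04, 1.75 and 1.87 on the log2 scale.

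The 200 genes differed by at most 1.19-fold between the crab with the highest and the crab with the lowest centred value. Their median range was 0.18 on the log2 scale, a ratio of 1.13 between the highest and the lowest library. The other 4160 eligible genes had a median range of 1.07, and the 200 genes with the largest range one of 3.22. The list is the lower end of a continuous distribution and has no gap at its border. The last genes inside were evm.TU.CM024113.1.222, evm.TU.CM024103.1.55 and evm.TU.CM024116.1.113, with ranges of 0.2492, 0.2496 and 0.25005. The first outside were evm.TU.CM024164.1.158, evm.TU.CM024158.1.338 and evm.TU.CM024124.1.15, at 0.2510, 0.2513 and 0.2528. The range was 0.12 at rank 50, 0.25 at rank 200 and 0.52 at rank 800. Within the 200, no crab was consistently high or low. The highest centred value fell in Mu_E_1 for 63 genes, in Mu_E_2 for 80 and in Mu_E_3 for 57, and the lowest for 75, 53 and 72 genes.

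**Figure D1:**
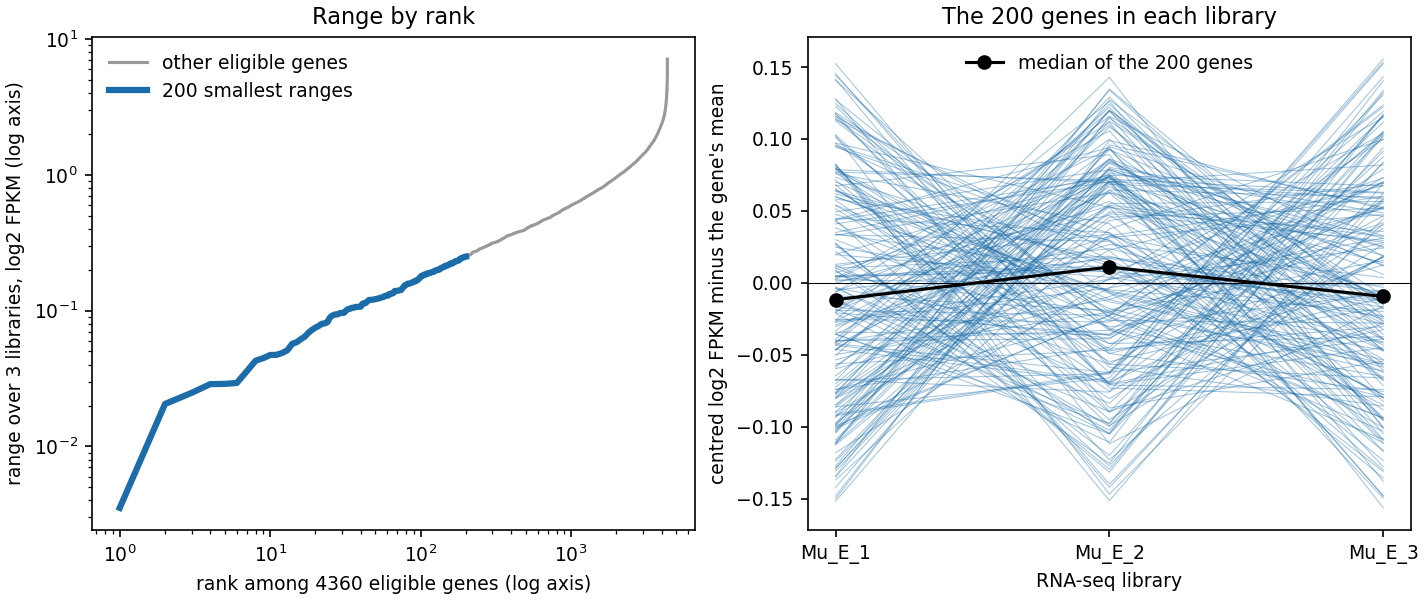
Left, range of the centred log2 FPKM over the 3 RNA-seq libraries against rank for the 4360 eligible genes, both axes logarithmic, with the 200 smallest ranges in blue. Right, each of the 200 genes as a line through its centred log2 FPKM in the 3 libraries minus its own mean, with the median of the 200 in black. The curve runs on without a step at rank 200 and range 0.25, and no library is high or low for the set as a whole.

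The smallest range of all belonged to evm.TU.CM024118.1.276. The libraries Mu_E_1, Mu_E_2 and Mu_E_3 gave it an FPKM of 21.4, 22.0 and 17.0. After centring, the 3 values differed by 0.0035 on the log2 scale. They rest on 182, 178 and 397 fragments, a deeper count in Mu_E_3 than in the other libraries.

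The second gene, evm.TU.CM024117.1.58, had an FPKM of 10.04, 10.4 and 7.91, and the third, evm.TU.CM024118.1.275, one of 27.9, 28.9 and 22.0. The third gene lies next to the first on the same sequence. A range under 0.05 was found for 12 genes and one under 0.10 for 31. The plot of the 20 smallest ranges shows the same step in all of them, with Mu_E_1 and Mu_E_2 close together and Mu_E_3 lower. This step follows from the choice on centred values.

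The best measured of the 20 smallest ranges was that of evm.TU.CM024132.1.300, at 77.7, 78.6 and 62.3 FPKM from 621, 598 and 1368 fragments. Its range was 0.036. The gene evm.TU.CM024122.1.160 was at 14.2, 14.8 and 11.2 FPKM, and its exonic model of 6888 bp drew 397, 395 and 864 fragments. Neither gene had a promoter peak in any ATAC-seq library. Both kinds of promoter occurred among the 20, however. The gene evm.TU.CM024107.1.56, without an intron and at 33.8, 34.7 and 28.1 FPKM, had a promoter enrichment of 10.5, 11.8 and 10.3. The gene evm.TU.CM024128.1.132 spans 126083 bp and was at 23.4, 24.2 and 18.1 FPKM, with a promoter enrichment of 6.04, 6.74 and 6.17. Few fragments lay behind evm.TU.CM024098.1.179, whose 15.2, 15.3 and 11.7 FPKM rest on 25, 24 and 53. The 20 genes thus include short and long models, open promoters and promoters without a peak.

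**Figure D2:**
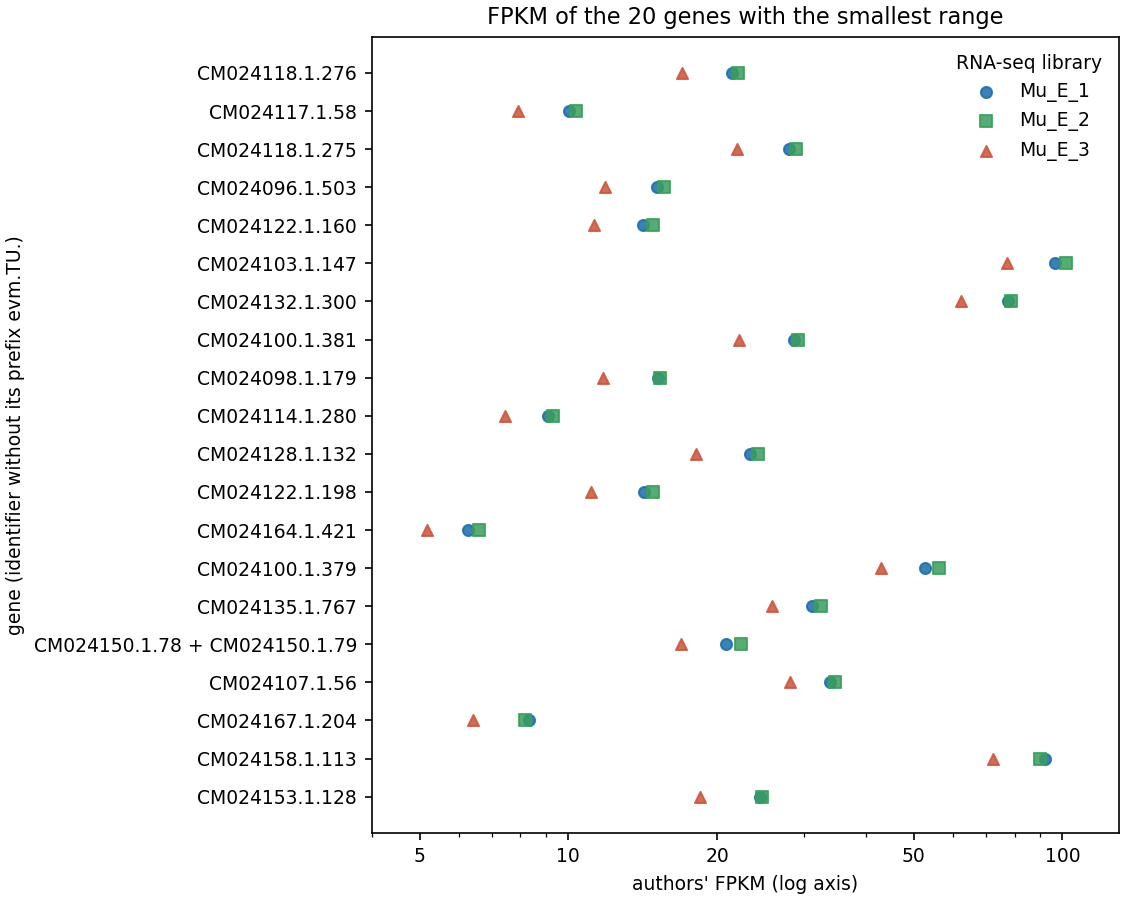
FPKM as given by the authors (log axis) of the 20 genes with the smallest range, one gene per line, with a circle for Mu_E_1, a square for Mu_E_2 and a triangle for Mu_E_3. The triangle lies to the left of both other symbols for every gene, and the distance between the symbols is nearly the same from evm.TU.CM024164.1.421, at 6.27, 6.59 and 5.18, to evm.TU.CM024103.1.147, at 96.8, 101.7 and 77.4. That Mu_E_3 is lowest, by nearly the same distance, follows from the choice on centred values.

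The constancy of these genes is relative to the median eligible gene, and it is not an equal value in the 3 crabs. In the authors' FPKM, Mu_E_3 was the lowest library for all 200 genes, against 2251 of the 4160 other eligible genes. The ratio of Mu_E_3 to the mean of Mu_E_1 and Mu_E_2 ran from 0.667 to 0.923, with a median of 0.776. With each library's own fragment total as the depth (fragments as a share of that total, scaled as CPM), the same ratio ran from 1.76 to 2.43, with a median of 2.05. Mu_E_3 was then the highest library for all 200, against 3072 of the 4160 others. For evm.TU.CM024118.1.276 this scaling gave 25.7, 23.7 and 51.0 CPM. The direction of the difference thus depended on the scaling, and neither scaling made the 200 genes equal in the 3 libraries. That all 200 lie on the same side was fixed by the choice. On either scale the median eligible gene of Mu_E_3 is further from the other libraries than the largest range in the list.

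The cause of the shift was not tested, but values that moved with it can be given. The divisor in the deposited FPKM, recovered from the fragments, was 0.573, 0.514 and 1.43 times the fragment total of the library in Mu_E_1, Mu_E_2 and Mu_E_3. The FPKM were therefore scaled by a library size other than the fragments on all genes with a deposited FPKM. It was below that fragment total in Mu_E_1 and Mu_E_2 and above it in Mu_E_3. The libraries hold 7088747, 7524721 and 7788537 fragments on all genes with a deposited FPKM. The median eligible gene, in contrast, drew 2.19 times as many fragments in Mu_E_3 as in Mu_E_1, while the total was 1.10 times as large. In log2 FPKM the library medians were 4.58, 4.62 and 4.25. Without centring, the median range of the 200 genes was 0.42, and only 31 of them were among the 200 smallest uncentred ranges.

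**Figure D3:**
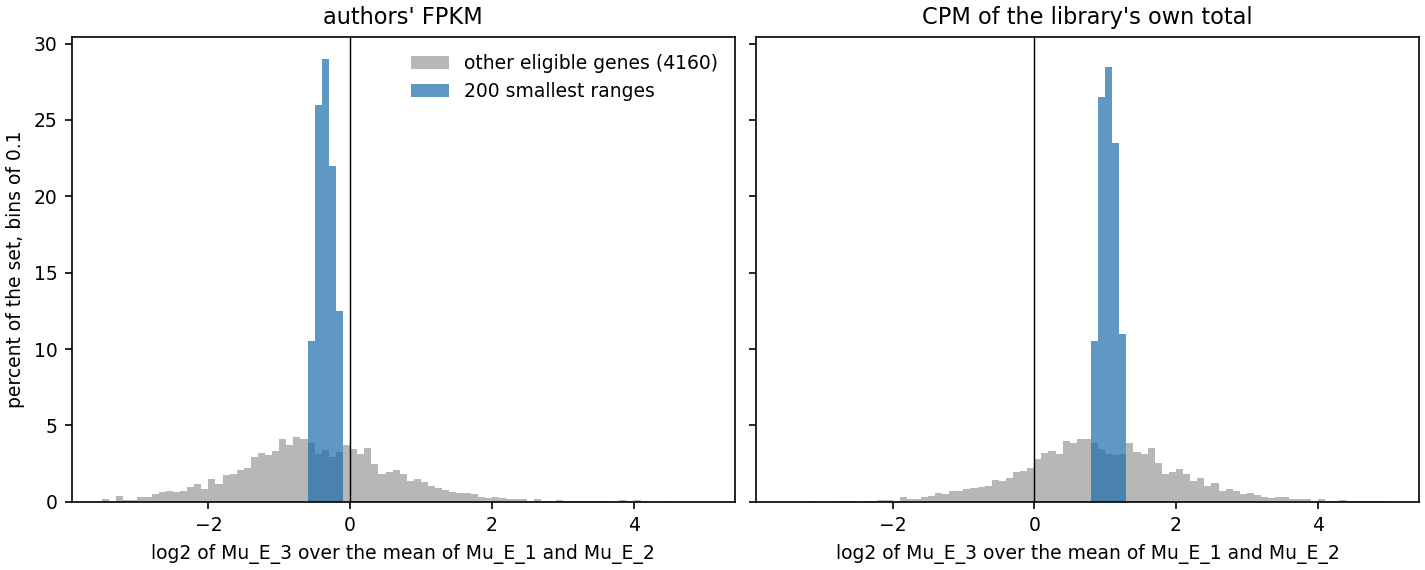
Log2 of the Mu_E_3 value over the mean of Mu_E_1 and Mu_E_2, in the authors' FPKM (left) and in CPM of each library's own fragment total (right), as the percent of the 200 genes (blue) and of the 4160 other eligible genes (grey) per bin of 0.1. The blue set lies wholly below 0 on the left, at a median ratio of 0.776, and wholly above 0 on the right, at a median ratio of 2.05. Both positions follow from the choice on centred values.

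The levels of the 200 genes were spread widely but leaned to the lower part of the eligible range. Their mean FPKM ran from 5.998 to 1027, with a median of 18.7. That of the other eligible genes ran from 5.22 to 1555, with a median of 24.7. Of the 200, 50 had a mean under 10 FPKM (25%, against 12.7% of the others) and 19 had one of at least 100. In the lowest of 10 equal groups by mean FPKM there were 42 of the 200, and in the highest there were 11. The floor of 5 FPKM in every library limits how far a gene of low mean can vary, and the median range of the lowest group was 0.67 against 1.23 in the highest.

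The most abundant of the 200 was evm.TU.CM024135.1.403, with an FPKM of 1005, 1221 and 856. Its mean was 1027 ± 183 (SD, n = 3 libraries). It was followed by evm.TU.CM024163.1.535 with 656, 671 and 604, and by evm.TU.CM024155.1.138 with 474, 533 and 407. For evm.TU.CM024163.1.535 the mean was 644 ± 34.8, a coefficient of variation of 5.41%. The median for the 200 was 14.9%. Its centred value was highest in Mu_E_3, whereas its FPKM was lowest there. The genes evm.TU.CM024133.1.166 (498, 471 and 366) and evm.TU.CM024118.1.5 (313, 359 and 283) completed the highest 5.

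At the other end, evm.TU.CM024119.1.365 was at 6.08, 6.38 and 5.53 FPKM, but this short gene rests on 6, 6 and 15 fragments. With so few fragments its range cannot be told from counting error. The genes evm.TU.CM024164.1.421, evm.TU.CM024131.1.8, evm.TU.CM024128.1.152 and evm.TU.CM024120.1.532 were likewise near 6 FPKM, from 49 to 217 fragments a library.

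FPKM and exonic length together gave back whole fragment numbers, so the spread can be set beside counting error. The median number of fragments of the 200 genes was 142.5, 146.5 and 330 in Mu_E_1, Mu_E_2 and Mu_E_3. A dispersion index was computed for each gene as the chi-square of its 3 fragment numbers over its 2 degrees of freedom, at the depths that the library medians give. An index of 1 is the spread that counting alone gives on average. The median index was 0.472 for the 200 genes and 27.4 for the other eligible genes. An index under 1 was found for 130 of the 200 (65.0%) and for 3.68% of the others. For most of the list, then, the measured range was no larger than counting error, and a smaller difference between crabs was not detectable at this depth. The index uses the values and depths that chose the genes, so its contrast with the other genes follows from the choice.

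Among the abundant genes the list exceeded counting error. In the highest group by mean FPKM the 11 members had a median index of 7.77, and that group as a whole one of 447. The largest index was 36.1, for evm.TU.CM024163.1.535, whose 2925, 2849 and 7401 fragments give a range of 0.22. At the depths used here, deep counts thus resolved small differences between the libraries that shallow ones could not. Without centring, the range of evm.TU.CM024163.1.535 was 0.15. Each crab gave 1 RNA-seq library, so a difference between crabs cannot be told apart from one between library preparations. With the depths set by the library totals in place of the medians, the median index of the 200 genes was 42.5.

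The difference in a library can also be read for genes chosen on the other libraries. The library left out still counted for eligibility, through the floor of 5 FPKM and the mean over all libraries, and the floor limits how far a gene can deviate in it. The 200 eligible genes with the smallest difference between 2 libraries were taken, and their deviation from the mean of those libraries was read in the remaining one. Chosen on Mu_E_2 and Mu_E_3, the genes deviated in Mu_E_1 by a median of 0.38 on the log2 scale, against 0.50 for the other 4160 genes. Chosen on Mu_E_1 and Mu_E_3, they deviated in Mu_E_2 by 0.41 against 0.51. Chosen on Mu_E_1 and Mu_E_2, they deviated in Mu_E_3 by 0.64 against 0.67.

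The median deviation was smaller than that of the other genes in 3 of 3 libraries, by 0.12, 0.11 and 0.03. These choices share libraries and are not independent, and no test was made. A deviation of up to 0.25 in the library left out was found for 76, 61 and 43 of the 200 genes, or 38%, 30.5% and 21.5%, against 26.1%, 25.7% and 20.7% of the others. When the other genes were weighted to the same groups of mean FPKM, the differences were 0.12, 0.09 and 0.02. The chosen genes thus deviated less than the others in Mu_E_1 and Mu_E_2, and by little less in Mu_E_3. Of the genes chosen, 73, 54 and 43 belong to the list examined here. The values are those that chose the list, so they are a description. Whether closeness in 2 crabs carries over to a further crab was not tested.

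**Figure D4:**
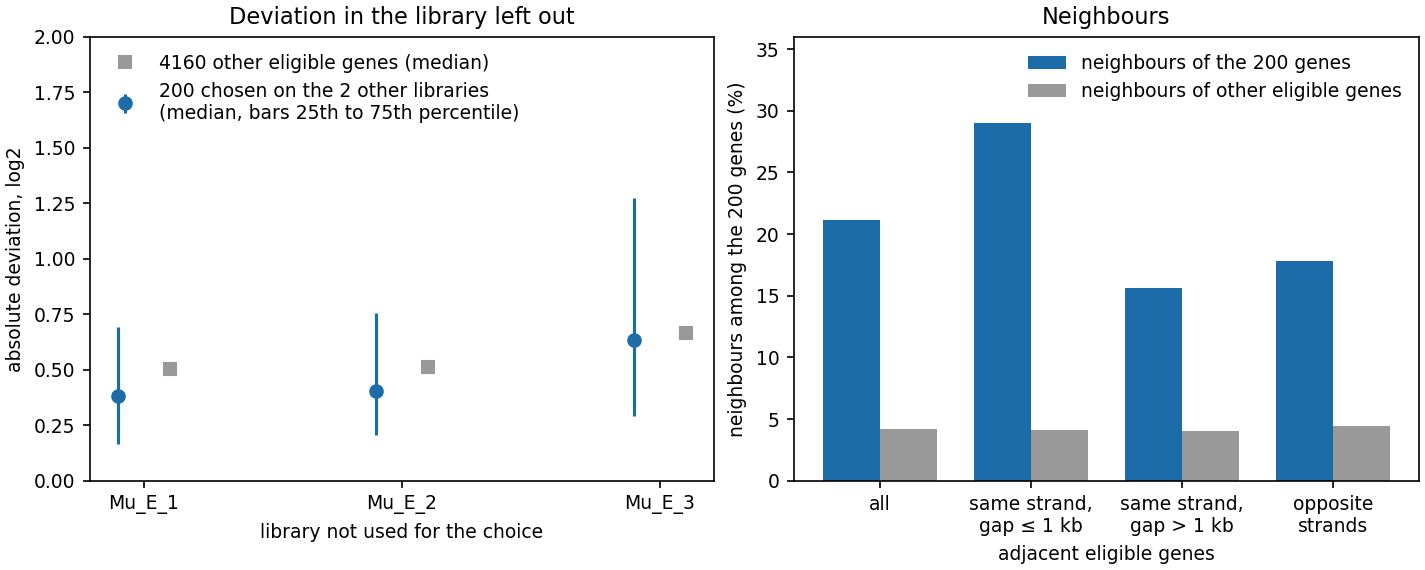
Left, median absolute deviation (log2) in the library left out, for the 200 genes chosen on the other libraries (circles, with bars from the 25th to the 75th percentile over genes) and for the 4160 other eligible genes (squares). The circles lie below the squares by 0.12, 0.11 and 0.03. Right, percent of the adjacent eligible neighbours that belong to the 200 genes, for neighbours of the 200 (blue, 21.2% over all pairs) and of other eligible genes (grey, 4.20%), over all pairs and by strand and gap.

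The position of the genes on the assembly was not used in choosing them, and the 200 genes were often next to each other. There were 1867 pairs of eligible genes that are neighbours in the annotation, and in 20 of them both genes were among the 200. In 35 of the pairs both genes were among the 200 with the largest range. Lying side by side was thus not particular to the list. Seen from the 200 genes, 40 of 189 eligible neighbours (21.2%) were themselves in the list, against 4.20% of the neighbours of other eligible genes. The median range of a neighbour was 0.56 next to one of the 200 genes and 1.07 next to another gene. These are counts of genes and not of crabs, and no test was made.

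The share differed with the arrangement of the pair. For neighbours on the same strand with a gap of at most 1 kb, 20 of 69 (29.0%) were in the list. On the same strand with a wider gap it was 10 of 64 (15.6%), and on opposite strands 10 of 56 (17.9%). The shares next to other eligible genes were 4.14%, 4.07% and 4.46%. Whether a pair of close models on 1 strand belongs to 1 transcript was not tested. With the FPKM floor set to 1, a choice made after the data were examined, the share next to a listed gene was 7.35%, against 2.28% next to the others.

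The closest case was that of evm.TU.CM024118.1.275 and evm.TU.CM024118.1.276, at ranks 3 and 1. Both lie on the minus strand, at 12449827 to 12451582 and at 12451776 to 12463478 of their sequence in the assembly of the study, with 193 bp between them. Their exonic lengths are 555 and 2091 bp. Their FPKM differed in level, 27.9 against 21.4 in Mu_E_1, while the step between libraries was alike, as the choice fixes for every gene of the list. Neither had a promoter peak in Mu_E_1 or Mu_E_2, and the second had one in Mu_E_3 alone.

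The pair evm.TU.CM024163.1.535 and evm.TU.CM024163.1.536, 8 bp apart on the minus strand, stood at a far higher level. Its first gene was at 656, 671 and 604 FPKM and its second at 271, 301 and 236. The pair evm.TU.CM024135.1.124 and evm.TU.CM024135.1.125 lay 13831 bp apart on the plus strand, with 206, 243 and 167 FPKM for the first and 280, 322 and 237 for the second. In FPKM, Mu_E_2 was the highest library for each gene of both pairs, as it was for 130 of the 200 genes. After centring, both genes of the pair 8 bp apart were highest in Mu_E_3. Runs of 3 listed genes were found for evm.TU.CM024154.1.259, evm.TU.CM024154.1.260 and evm.TU.CM024154.1.261, and for evm.TU.CM024164.1.244, evm.TU.CM024164.1.245 and evm.TU.CM024164.1.247. In the first run the FPKM in Mu_E_1 was 51.2, 134 and 121, and in the second 40.8, 44.6 and 29.6.

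Genes with overlapping models on opposite strands share positions, and the sources used here do not say whether strand was used in counting. Among the 200, 9 genes (4.50%) overlapped any other gene with a deposited FPKM on the other strand, against 5.60% of the other eligible genes. One such case joined neighbours of the list, evm.TU.CM024097.1.136 and evm.TU.CM024097.1.137, whose ends overlap by 220 bp.

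Head-to-head starts, that is, starts of genes on opposite strands within 1 kb of each other that run apart, were found for 12 of the 200 genes (6%) and for 4.25% of the other eligible genes. In 1 case both genes were in the list. The starts of evm.TU.CM024097.1.331 and evm.TU.CM024097.1.332 are 283 bp apart. The first was at 24.2, 27.8 and 20.2 FPKM and the second at 122, 140 and 92.5. Both starts fell under the same accessible region, with an enrichment of 6.10, 6.25 and 7.89 in the 3 ATAC-seq libraries. For 9 of the 12 genes the partner was not eligible, so its range was not ranked. Of the 3 eligible partners, 2 were in the list, namely this pair counted from either side. Among the 177 other eligible genes with such a start, 61 partners were eligible and 1 was in the list. Next to evm.TU.CM024100.1.381, which was at 28.6, 29.1 and 22.1 FPKM, the partner evm.TU.CM024100.1.382 starts 132 bp away and was at 0.483, 13.2 and 5.63.

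The 200 genes lay on 65 sequences, and 197 of them on the numbered chromosomes. The largest numbers were 9 of 119 eligible genes on CM024097.1, 9 of 95 on CM024100.1 and 9 of 123 on CM024135.1. On CM024155.1, 8 of 58 eligible genes (13.8%) were in the list.

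The genes had somewhat longer exonic models than the rest. The median exonic length was 1647 bp, against 1280 bp for the other eligible genes and 1170 bp for the 200 with the largest range, and 69.5% were longer than 1 kb, against 59.1% of the others. A longer model collects more fragments at a given FPKM, so length is not independent of the counting error in the range. The genomic span, introns included, was close, with a median of 9062 bp against 8936 bp. Models without an intron made up 26 of the 200 (13%) and 10.9% of the others. The nearest other annotated start was 6384 bp away in the median, against 8565 bp.

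Chromatin accessibility was measured by an assay that the choice did not use, and it asks whether genes of steady level have a particular promoter. A promoter was taken to reach 2 kb to either side of the start of a gene. A peak in it was found for 114, 108 and 114 of the 200 genes in Mu_E_1, Mu_E_2 and Mu_E_3, a mean of 56.0% ± 1.73 (SD, n = 3 libraries). For the other eligible genes the mean was 57.0% ± 1.76, and for the 200 genes with the largest range 59.8% ± 3.75.

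The difference from the other eligible genes was -1.04 ± 0.53 percentage points, negative in 3 of 3 libraries and smaller than the spread of either set. An exact sign-flip permutation test over the libraries, two-sided, gave p = 0.25, which is the smallest value that 3 libraries allow. With the other genes weighted to the same groups of FPKM the difference was 0.64 percentage points, and it was 0.42 when peaks had to reach a q-value of 1e-05. The sign of the difference therefore depended on how the peaks and the compared genes were chosen. With 2 kb promoters, all peaks and no weighting, the difference ran from -0.48 to -1.53 percentage points over the libraries.

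Of the 200 genes, 101 had a promoter peak in each of the 3 libraries, or 50.5% (95% Wilson interval 43.6% to 57.4%, which covers counting error only), and for 50.0% of the others. No library had one for 77 of the 200 (38.5%), against 35.3%. Where a peak was present, its nearest summit lay close to the start, at a median of 76, 79 and 65.5 bp in the 3 libraries.

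The height of the promoter peaks differed by less than the spread between libraries. The highest fold enrichment over the local background in each promoter had a median of 5.36, 5.72 and 6.13 in the 3 libraries for the 200 genes, and of 5.34, 5.77 and 5.80 for the others. The mean difference was 0.10 ± 0.20 (two-sided exact sign-flip permutation test, p = 0.75, n = 3 libraries).

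The strongest promoters of the list were those of evm.TU.CM024122.1.180, with an enrichment of 11.3, 15.9 and 13.6, and of evm.TU.CM024158.1.484, with 11.0, 13.2 and 14.1. They were followed by evm.TU.CM024107.1.7, evm.TU.CM024144.1.373 and evm.TU.CM024146.1.492. The FPKM of these 5 genes reached from 8.74 to 186, so strong enrichment went with both low and high levels.

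Abundant genes of the list without a promoter peak in any library were found too. The highest was evm.TU.CM024135.1.125, at 280, 322 and 237 FPKM, and evm.TU.CM024113.1.222 was at 259, 224 and 198. The genes evm.TU.CM024135.1.124, evm.TU.CM024100.1.563 and evm.TU.CM024100.1.564 came next. The last 2 are neighbours on the plus strand, 384 bp apart, so that 4 of these 5 genes stand in neighbouring pairs of the list. A peak below the threshold of the peak caller, or a start placed wrongly in the annotation, would not be seen here.

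Steadiness of the transcript level can also be set beside steadiness of the promoter. For the genes with a promoter peak in all 3 libraries, the log2 fold enrichment was centred on its median in each library and its range over the 3 libraries was taken. The median range was 0.29 for the 101 genes of the list, 0.31 for the 2080 other eligible genes and 0.37 for the 101 of the 200 genes with the largest FPKM range. Among the 101 genes the range ran from 0.06 to 0.92. For evm.TU.CM024100.1.381, at rank 8 of the FPKM range, the enrichment was 9.56, 9.67 and 9.93. For evm.TU.CM024114.1.280, at rank 10, it was 4.21, 3.33 and 6.59, the widest range of the 101. Across the 2181 eligible genes with a promoter peak in all libraries, the Spearman correlation of the FPKM range with the enrichment range was 0.028. It is a correlation across genes from the same libraries and is given as a description. Without Mu_E_2 the order of the list and the other genes was turned, with the list higher by 0.029.

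**Figure D5:**
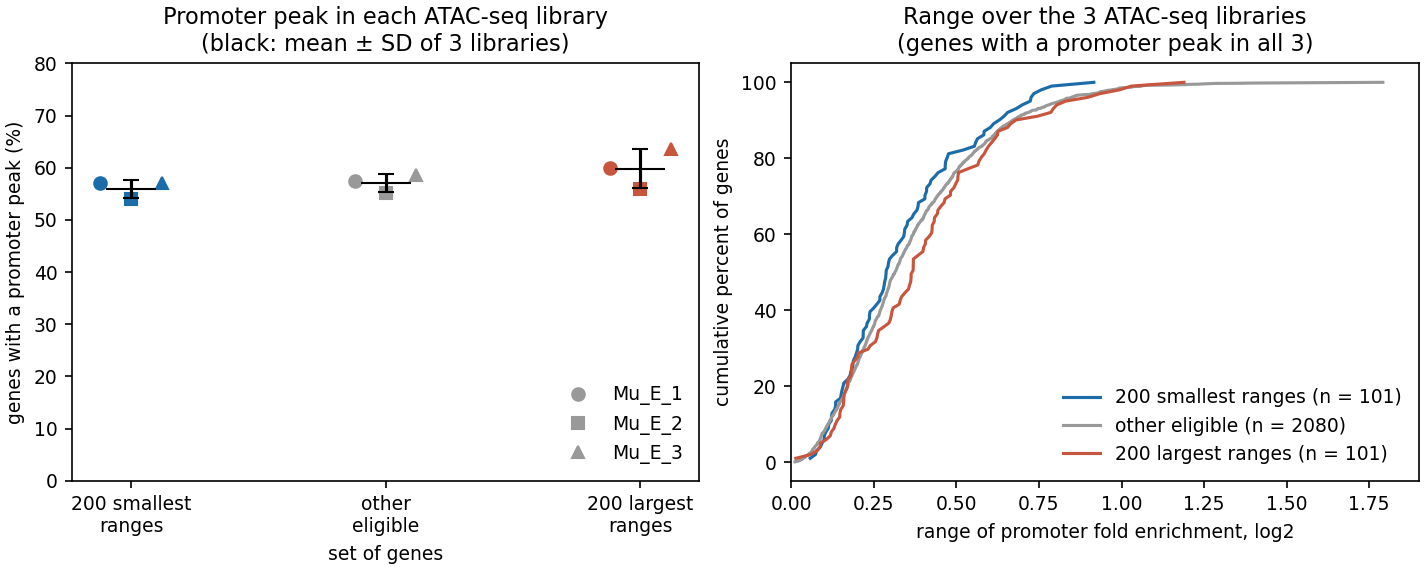
Left, percent of genes with a peak within 2 kb of the transcription start in each ATAC-seq library (symbols), with mean ± SD of the 3 libraries in black, for the 200 genes of smallest range, the 4160 other eligible genes and the 200 of largest range. The means are 56.0%, 57.0% and 59.8%. Right, cumulative distribution of the log2 range of promoter fold enrichment over the 3 libraries for genes with a promoter peak in all 3, with medians of 0.29, 0.31 and 0.37.

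Peaks inside the gene but outside the promoter were less frequent in the list. They were found for 23.5%, 22.5% and 21.0% of the 200 genes and for 29.9%, 27.4% and 29.3% of the other eligible genes. The difference was -6.55 ± 1.70 percentage points (SD, n = 3 libraries), lower in 3 of 3 libraries and larger than the spread between them. The same 200 genes were scored in each library, so this SD does not cover the counting error of a share of 200 genes. The exact sign-flip permutation test gave p = 0.25, two-sided, and cannot go lower. The difference was -7.07 when the other genes were weighted to the same groups of genomic span and -4.96 when they were weighted to groups of mean FPKM. Only 29 genes of the list (14.5%) had such a peak in every library, against 22.6% of the others. Among them was evm.TU.CM024116.1.113, which spans 238704 bp and held 17, 17 and 18 gene-body peaks.

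Constancy among molting crabs does not speak for constancy between periods, and the study's integrated lists of genes that changed between adjacent periods were compared by identifier. Of the 200 genes, 11 (5.50%) are on at least 1 of the 4 lists, against 12.5% of the other eligible genes and 23.0% of the 200 with the largest range. With the other genes weighted to the same groups of mean FPKM, the difference was -5.18 percentage points. The lists that include period E were drawn up partly on the same libraries, where a wide spread within a period weighs against a call. The share over all 4 lists is therefore not independent of the choice. The remaining lists compare periods that the libraries used here do not cover.

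In the names of the lists, A, C and D stand for the periods after the molt, between molts and before the molt. Of the 200 genes, 6 are on the Mu_A vs. Mu_C list, 3 on Mu_D vs. Mu_E, 3 on Mu_E vs. Mu_A and 0 on Mu_C vs. Mu_D. Of the 4160 other eligible genes, 286, 317, 31 and 7 are on these lists in the same order. The smaller share of the 200 genes thus came from the 2 long lists, while on Mu_E vs. Mu_A their share was not smaller, and the Mu_C vs. Mu_D list is too short for a count of 0 to be read. The gene evm.TU.CM024123.1.37, at 21.5, 20.9 and 17.7 FPKM, is on both the Mu_D vs. Mu_E and the Mu_E vs. Mu_A list. The gene evm.TU.CM024129.1.47, at 63.6, 63.1 and 47.7 FPKM and rank 25, is on the Mu_D vs. Mu_E list, as is evm.TU.CM024120.1.380. On the Mu_A vs. Mu_C list are evm.TU.CM024127.1.253, evm.TU.CM024100.1.302, evm.TU.CM024107.1.198, evm.TU.CM024155.1.160, evm.TU.CM024132.1.309 and evm.TU.CM024154.1.199. The genes evm.TU.CM024146.1.388 and evm.TU.CM024135.1.890 are on the Mu_E vs. Mu_A list.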

How the data were processed

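RNA-seq reads were cleaned with Trimmomatic and mapped with Hisat2 2.0.5 by the authors, who counted uniquely mapped fragments with featureCounts 1.5.0-p3 and deposited FPKM per gene with its position and exonic length. The authors mapped skewer-trimmed ATAC-seq reads with BWA and called peaks per library with MACS2. The deposited lists give a score, which was not used, the fold enrichment (a ratio) and the −log10 of the p-value and q-value. A transposase shift and the annotation version are not given in the sources used here.

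Genes were ranked, peaks placed (overlap of at least 1 bp) and plots drawn with Python 3.11.15, numpy 2.4.6, pandas 2.3.3, scipy 1.17.1 and matplotlib 3.10.9. Whole fragments were recovered from FPKM and length with a tolerance of 0.05, for 100% of the values above 0. Depth was 7088747 to 7788537 fragments per RNA-seq library, and 44610 to 52473 peaks per ATAC-seq library. The FPKM were compared as log2 without a pseudocount. Alternatives, some of them added after the data were examined, covered the floor, centring, pseudocount, promoter width, peak threshold and leaving out each library. Tests over the 3 ATAC-seq libraries were exact sign-flip permutations. Ranking, recovery and peak placement were tested on simulated data.

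The genes, the lists and the comparisons were chosen with earlier results of these data known. Named genes are the 20 smallest ranges, the highest and lowest 5 means, the border of the list, the strongest promoters, abundant genes without a peak, neighbours, and genes on the study's lists. Examples were taken from them. Lists by gene function, and the marker lists, could not be applied without gene names. No reference genome was used, so no sequence is shown.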

Additional observations from a re-analysis of the deposited data

How the results depend on the processing

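Which genes enter the list depended strongly on the rule. Of the 200 genes, 44, 102 and 102 were also taken with a floor of 1, 2 and 10 FPKM, 18 with any value above 0, 31 without centring, 69 with centring on genes of at least 1 FPKM and 25 under a minimum of 100 fragments per library (the latter 2 were added after the data were examined). Leaving out a library kept 36 to 58, the fewest without Mu_E_3 (58 without Mu_E_1, 49 without Mu_E_2). Between 164 and 199 were kept under the other 6 forms (a pseudocount of 1 or 0.1, mean centring, SD, the 100 highest kept or taken over all genes). The median range was 0.42 without centring, and the dispersion index 42.5 with depths from library totals. The promoter share differed by -1.83 percentage points with 1 kb promoters, 0.42 with peaks up to a q-value of 1e-05, -1.69 with the 100 highest genes kept and 0.64 weighted to FPKM groups, and by -1.31 to -0.79 without 1 library. Median fold enrichment differed by 0.38 with 1 kb promoters. The range of fold enrichment differed by -0.034 (without Mu_E_1) to 0.029 (without Mu_E_2). The share of listed neighbours was 7.35% with a floor of 1 FPKM and 29.9% with 10 FPKM. No paired analysis was possible because there is 1 condition, so no groups of crabs were compared, and each test set gene sets against each other within the ATAC-seq libraries.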
